A study of Mus musculus with 18 samples.

Results

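Erythroid and megakaryocyte lineage genes, 32 genes chosen by name as parts of the red cell, the platelet or the nuclear machinery that both lineages use, were followed in factor-dependent myeloid (FDM) cells, WT or p53-/-. Enzymes of heme synthesis were left out. The array annotation named a probe for 30 of the 32, out of 17711 genes named in all, and 22 of these 30 had 1 probe. The brightest probe was used where a gene had several. Zfpm1 and Epb41 had no named probe and were not analysed here. Of the 30, 29 were detected on at least 1 array and were tested, and Epb42 (protein 4.2 of the red-cell membrane) was detected on none of the 18 arrays.

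FDM cells are mouse myeloid progenitor cells transformed with HoxB8 that depend on IL-3 for survival and growth. RNA had been taken from 3 independent WT clones and 3 independent p53-/- clones at 0 h, when the cells were still growing in IL-3, and after 6 h and 18 h without IL-3. Every clone is a line of its own, so a clone contributes 1 array to each of the 3 times, and all clones of both genotypes carry the HoxB8 transformation. The probes for Trp53 and for the resistance cassette were unnamed here and were not analysed, so the genotypes rest on the labels alone.

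Red cells and megakaryocytes arise from a common progenitor. In both, GATA1 works with a complex that TAL1, LMO2 and their partners form on DNA, and GFI1B and NF-E2 (whose larger subunit is encoded by Nfe2) act in both lineages. KLF1 drives the red-cell branch, in which erythropoietin and its receptor sustain the cells while they load the membrane with band 3, the Rh complex and spectrin and fill with globin. Megakaryocytes instead carry the glycoprotein Ib-IX-V receptor and the αIIbβ3 integrin on the surface and store the chemokines Pf4 and Ppbp in granules.

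Because GATA1 recognises the letters AGATAA or TGATAA, the stretches before the RefSeq start of the genes (build GRCm38.p6) were searched for them on both strands. The RefSeq table matched 22 of the 32 genes. In the 250 bases before a start, the motif was present in 12 of these 22 (54.5%), in 11 of the 16 that encode red-cell proteins or regulators (68.8%), and in 18.8% of all 27025 genes in the table. The E-box CAGATG, which may overlap the motif, was in 22.7% of the 22 and in 16.3% of all. The CACCC motif recognised by KLF1, in the form CCACACCC, was in none of the 22 and in 3.68% of all, and in the wider form CCNCNCCC it was in 54.5% and 48.5%. A match is a description of the letters and not a bound site. The last 130 bases before the start of 6 red-cell genes and regulators that hold the motif and whose levels follow are printed on the strand of the gene from 5′ to 3′, with the motif in capitals (TTATCT or TTATCA where it lies on the other strand).
Kel (chr6:41704326-41704455, minus strand): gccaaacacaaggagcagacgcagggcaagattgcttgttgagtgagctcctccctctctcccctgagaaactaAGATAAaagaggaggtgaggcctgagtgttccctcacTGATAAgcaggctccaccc
Rhag (chr17:40811019-40811148, plus strand): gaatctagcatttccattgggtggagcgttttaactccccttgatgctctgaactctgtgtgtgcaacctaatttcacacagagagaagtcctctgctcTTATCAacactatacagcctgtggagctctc
Hemgn (chr4:46404184-46404313, minus strand): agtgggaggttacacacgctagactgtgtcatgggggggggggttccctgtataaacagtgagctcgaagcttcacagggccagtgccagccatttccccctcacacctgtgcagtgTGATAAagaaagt
Epor (chr9:21963577-21963706, minus strand): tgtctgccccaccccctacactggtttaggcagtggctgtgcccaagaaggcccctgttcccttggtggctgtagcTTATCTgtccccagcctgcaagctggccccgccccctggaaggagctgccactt
Klf1 (chr8:84901852-84901981, plus strand): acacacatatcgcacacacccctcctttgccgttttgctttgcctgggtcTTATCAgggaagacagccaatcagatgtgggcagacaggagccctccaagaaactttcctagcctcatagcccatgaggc
Gfi1b (chr2:28621983-28622112, minus strand): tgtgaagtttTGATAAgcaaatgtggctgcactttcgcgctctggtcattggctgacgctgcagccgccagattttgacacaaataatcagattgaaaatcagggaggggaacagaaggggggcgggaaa
Counted from the start, the motif lay at -13 in Hemgn, -31 in Rhag, -54 in Epor, -80 in Klf1 and -120 in Gfi1b, and Kel held 2 matches, at -56 and -19. Ermap (-67) and Rhd (-43) also hold the motif within 130 bases of the start and are not printed.

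Levels are given as background-corrected, quantile-normalised log2 intensities of 1 probe, so that a difference of 1 is a doubling of signal; the level of one gene is not set against that of another. A probe was detected on an array at a detection p under 0.01. Median raw intensity was 102.9 to 175.2 per array. The array of p53-/- clone 3 at 18 h stood apart, with 27.01% of probes detected against at least 30.69% elsewhere, and the linear model gave it a weight of 0.0905, against up to 4.34 for the others. The highest weight was that of WT clone 2 at 0 h, against 0.786 and 0.906 for WT clones 1 and 3. Fitted changes from WT cells at 0 h therefore leaned on WT clone 2. A gene was called when the adjusted p from limma was 0.1 or lower and B, the log odds of a difference, was above 0. Changes and standard errors (SE) come from the weighted fit and can differ from the difference of plain means. In RNA from whole cultures, fewer cells of a type and less RNA per cell cannot be told apart.

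In cells growing in IL-3, a few of these genes differed between the genotypes, each of them higher in p53-/- cells. At 0 h, 4 of the 29 genes were higher in p53-/- cells and 0 were lower, where 2.13% of all 11195 genes were called higher and 2.67% lower. The 4 were Slc4a1 and Rhag among 8 genes of the red-cell membrane, Hemgn among 8 genes of the receptor and regulators, and Gp9 among 8 platelet genes, while 0 of 5 genes of globin, carbonic anhydrase and iron uptake were called. The genes Slc4a1, Sptb and Ermap passed the detection filter through p53-/- arrays alone. All counts over 29 genes keep them, so for the main genotype comparisons counts over the other 26 are given as well. Of the other 26 genes, 3 were called at 0 h, 12 had every p53-/- value above every WT value (14.9% of all genes), and the median log2 change was 1.06, against 0.04 over all genes. At 6 h, 6 of 29 were higher and 0 lower (4.09% and 5% of all genes), and at 18 h 8 were higher and 0 lower (4.37% and 3.47%). Of the 26 genes, 5 and 7 were called, 13 at both times had every p53-/- value above every WT value (19.3% and 18.3% of all genes), and at 6 h 2, Nfe2 and Itga2b, had them all below (19.8%). Their medians were 1.05 at 6 h and 1.21 at 18 h, against 0.00 and 0.06 over all genes. The same 6 clones stand behind all 3 times, so these are not independent counts. The model shares its spread over 18 arrays; with 3 clones against 3, an exact permutation test of 1 gene could not go below p = 0.1.

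**Figure D1:**
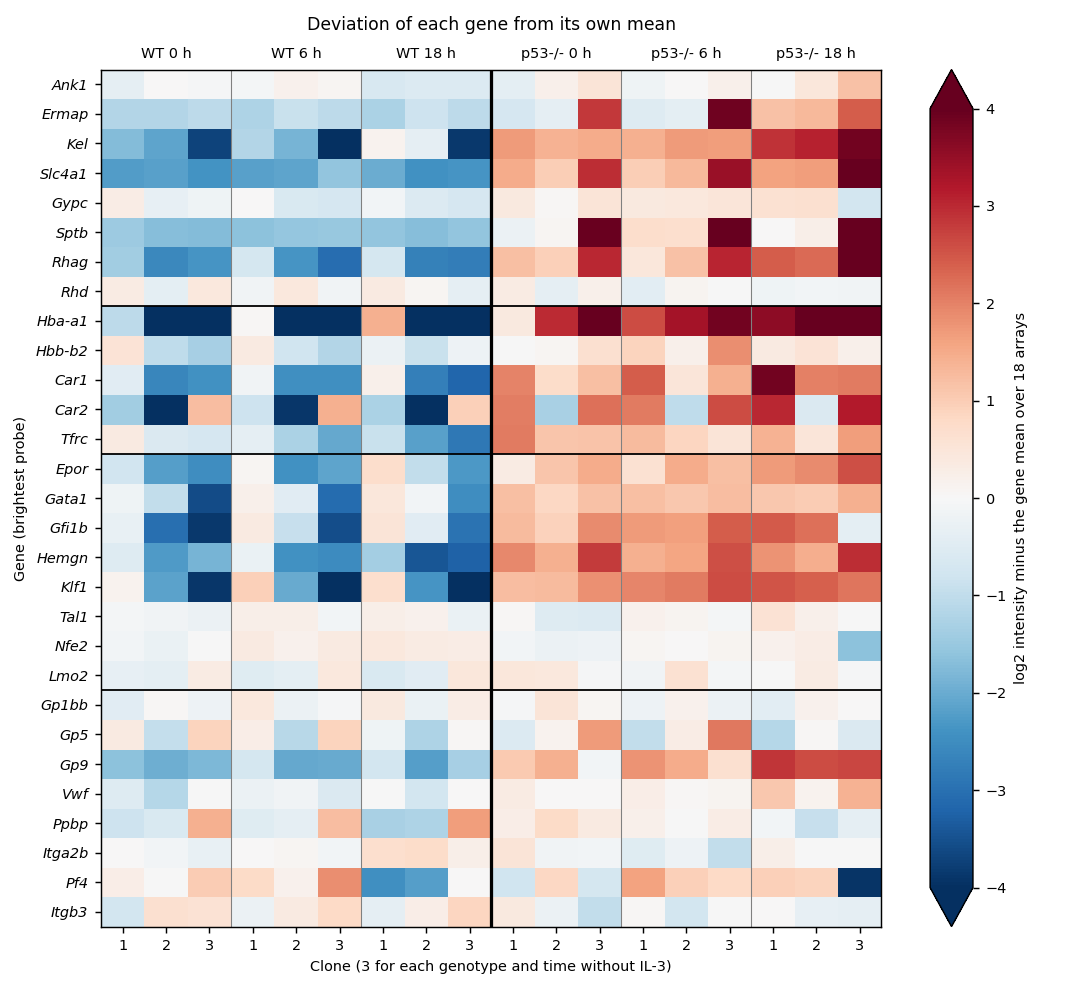
Colour map of the 29 genes tested (rows, grouped from the top as red-cell membrane, globin to iron, receptor and regulators, platelet) on the 18 arrays (columns, by genotype, time without IL-3 and clone), each cell the log2 intensity minus the mean of that gene, with colours ending at 4 above or below. Red-cell rows are mostly blue in WT and red in p53-/- arrays, with WT clone 1 nearer the middle, while Tal1, Nfe2, Lmo2 and most platelet rows stay pale.

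One value for each clone, the mean over its 3 times, removes the repeat. Over clone means 4 of 29 genes were higher in p53-/- clones and 0 lower, against 1.04% and 1.39% of all genes, and these were Slc4a1, Rhag, Hemgn and Gp9 once more. Of the 26 genes detected in both genotypes 3 were called and 14 had all 3 p53-/- clones above all 3 WT clones (19.8% of all genes), with a median change of 0.91, and Nfe2 had them all below (18.6% of all genes). When 1 clone was left out the count ran from 1, without WT clone 2, to 10, without WT clone 1, and Gp9 alone was called in each case.

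Among proteins of the red-cell membrane, Slc4a1, the band 3 anion exchanger, had the widest gap between the genotypes relative to its error at 0 h. At 0 h its log2 level was 4.62, 4.70 and 4.46 in WT clones 1, 2 and 3, none of them detected, and 8.36, 7.85 and 9.81 in the p53-/- clones. At 18 h it was 4.87, 4.45 and 4.52 in WT and 8.47, 8.54 and 11.89 in p53-/- clones. All 9 p53-/- arrays detected Slc4a1 and no WT array did, so only a bound on the fold is given, taken from the p53-/- mean and, on each WT array, the higher of the probe itself and the dimmest probe detected. The bound was at least 8.12-fold at 0 h (adjusted p = 0.000382), at least 8.96-fold at 6 h and at least 16.2-fold at 18 h. The call at 0 h held without any 1 of the 6 arrays compared. It was lost on the processed values of the authors, as was that of Rhag.

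Rhag, the Rh-associated glycoprotein that carries the Rh complex to the membrane, was low but often present in WT cells. Its log2 level at 0 h was 6.65, 5.44 and 5.67 in the WT clones and 9.24, 8.98 and 11.03 in the p53-/- clones. At 18 h the values were 7.33, 5.33 and 5.27 in WT and 10.44, 10.30 and 12.12 in p53-/- cells, and the genotypes did not overlap at any time. The log2 change was 4.14 (SE 0.765, adjusted p = 0.00367) at 0 h, 3.10 at 6 h and 4.61 at 18 h. A second Rhag probe was also called at each time, with 3.70 at 0 h. At 0 h the call was lost without WT clone 2, WT clone 3 or p53-/- clone 3, where the change stayed between 3.48 and 3.73 and the adjusted p was at most 0.0812.

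Kel, the Kell blood-group endopeptidase, was 7.35, 6.98 and 5.39 in WT clones at 0 h and 10.78, 10.49 and 10.58 in p53-/- clones. The p53-/- clones lay within 0.28 of one another while the WT clones spread widely, with clone 3 lowest. The log2 change of 3.82 at 0 h was not called (adjusted p = 0.0128, B = -0.30); those of 3.85 at 6 h (adjusted p = 0.00162) and 3.74 at 18 h (adjusted p = 0.00478) were.

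Sptb, the β-spectrin of the red-cell skeleton, was detected on all 9 p53-/- arrays and on no WT array, and so had passed the filter through the p53-/- arrays alone. The p53-/- clones were unlike one another, at 6.14, 6.44 and 10.31 at 0 h, 7.06, 7.05 and 10.95 at 6 h, and 6.40, 6.59 and 10.81 at 18 h, with clone 3 far above the others at each time. WT values were 4.65 to 4.92. The difference was at least 3.93-fold at 0 h and was not called (adjusted p = 0.0267, B = -1.53). Ermap, a transmembrane protein of erythroblasts, followed the same clone, with 5.21, 5.54 and 8.72 in p53-/- clones at 0 h, and was detected on 5 of 9 p53-/- arrays and no WT array.

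For the remaining membrane genes the brightest probe was not called at any time. Gypc (glycophorin C) was bright throughout, from 10.17 to 11.13 in WT and from 10.10 to 11.47 in p53-/- arrays, and its log2 changes of 0.55, 0.85 and 1.02 were not called. Ank1 (ankyrin, which ties band 3 to spectrin) changed by 0.16 at 0 h and -0.12 at 6 h, with overlapping groups. At 18 h it was 6.22, 6.31 and 6.32 in WT and 6.84, 7.32 and 8.03 in p53-/- clones, apart but not called (0.84, adjusted p = 0.00724). A second, dimmer Ank1 probe, detected on 7 arrays, was called at 6 h (1.23), at 18 h (1.93) and over clone means (adjusted p = 0.0264), and not at 0 h (0.97). Rhd (the Rh antigen) was detected on 4 arrays in all and its groups overlapped at every time.

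α-Globin differed widely between clones of 1 genotype. The Hba-a1 probe (α-globin) read 9.94, 5.31 and 6.59 in WT clones 1, 2 and 3 at 0 h, 11.02, 5.44 and 5.90 at 6 h, and 12.41, 6.18 and 6.70 at 18 h. In p53-/- clones it read 11.36, 13.97 and 15.23 at 0 h, 13.58, 14.31 and 14.84 at 6 h, and 14.54, 15.19 and 15.07 at 18 h. WT clone 1 thus stood far above the other WT clones and, at 18 h, above the 0 h value of p53-/- clone 1, although the groups did not overlap at any 1 time. The log2 change was 7.49 (SE 1.94) at 0 h, where WT clone 2 was not detected and the plain means were 13.52 and 7.28, 6.83 (SE 1.55) at 6 h and 7.10 (SE 1.76) at 18 h, and none was called (at 0 h adjusted p = 0.0202, B = -1.05). The α-globin genes are near-identical copies, so the probe cannot say which of them was read. Whether the Hbb-b2 probe (β-globin) also reads other β-globin genes was not checked, as probe sequences were not used here. Hbb-b2 was 4.85 to 6.71 in WT and 6.16 to 8.03 in p53-/- arrays, and was not called.

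Of the carbonic anhydrases, which hydrate carbon dioxide in red cells, Car1 was 7.26, 5.09 and 5.28 in WT clones at 0 h against 9.68, 8.43 and 8.89 in p53-/- clones. At 18 h it was 7.90, 4.97 and 4.53 against 11.56, 9.70 and 9.78. WT clone 1 was the only WT clone in which Car1 was detected, so that 2 of the 3 WT values behind each change lay at background, and the groups did not overlap. The change of 4.89 at 18 h was called (SE 0.924, adjusted p = 0.00188) and that of 3.58 at 0 h was not (adjusted p = 0.0307, B = -1.74). Car2 split by clone within both genotypes: at 0 h it was 7.81, 5.07 and 10.42 in WT and 11.23, 7.91 and 11.40 in p53-/- clones, so that WT clone 3 exceeded p53-/- clone 2 (change 3.93, SE 2.01, adjusted p = 0.221). The plain means of Car2 at 0 h were 10.18 in p53-/- and 7.77 in WT clones, as the fit leaned on WT clone 2.

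Tfrc, the transferrin receptor that brings iron into the cell, is made by most growing cells. It was 12.95, 12 and 11.92 in WT clones at 0 h against 14.66, 13.69 and 13.71 in p53-/- clones. By 18 h it was 11.69, 10.42 and 9.71 in WT and 13.96, 13.05 and 14.24 in p53-/- clones, and no WT value reached a p53-/- value at the same time. The change was 1.88 at 0 h (adjusted p = 0.0275, not called), 2.17 at 6 h (SE 0.418, adjusted p = 0.00198) and 2.86 at 18 h (SE 0.475, adjusted p = 0.000808).

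**Figure D2:**
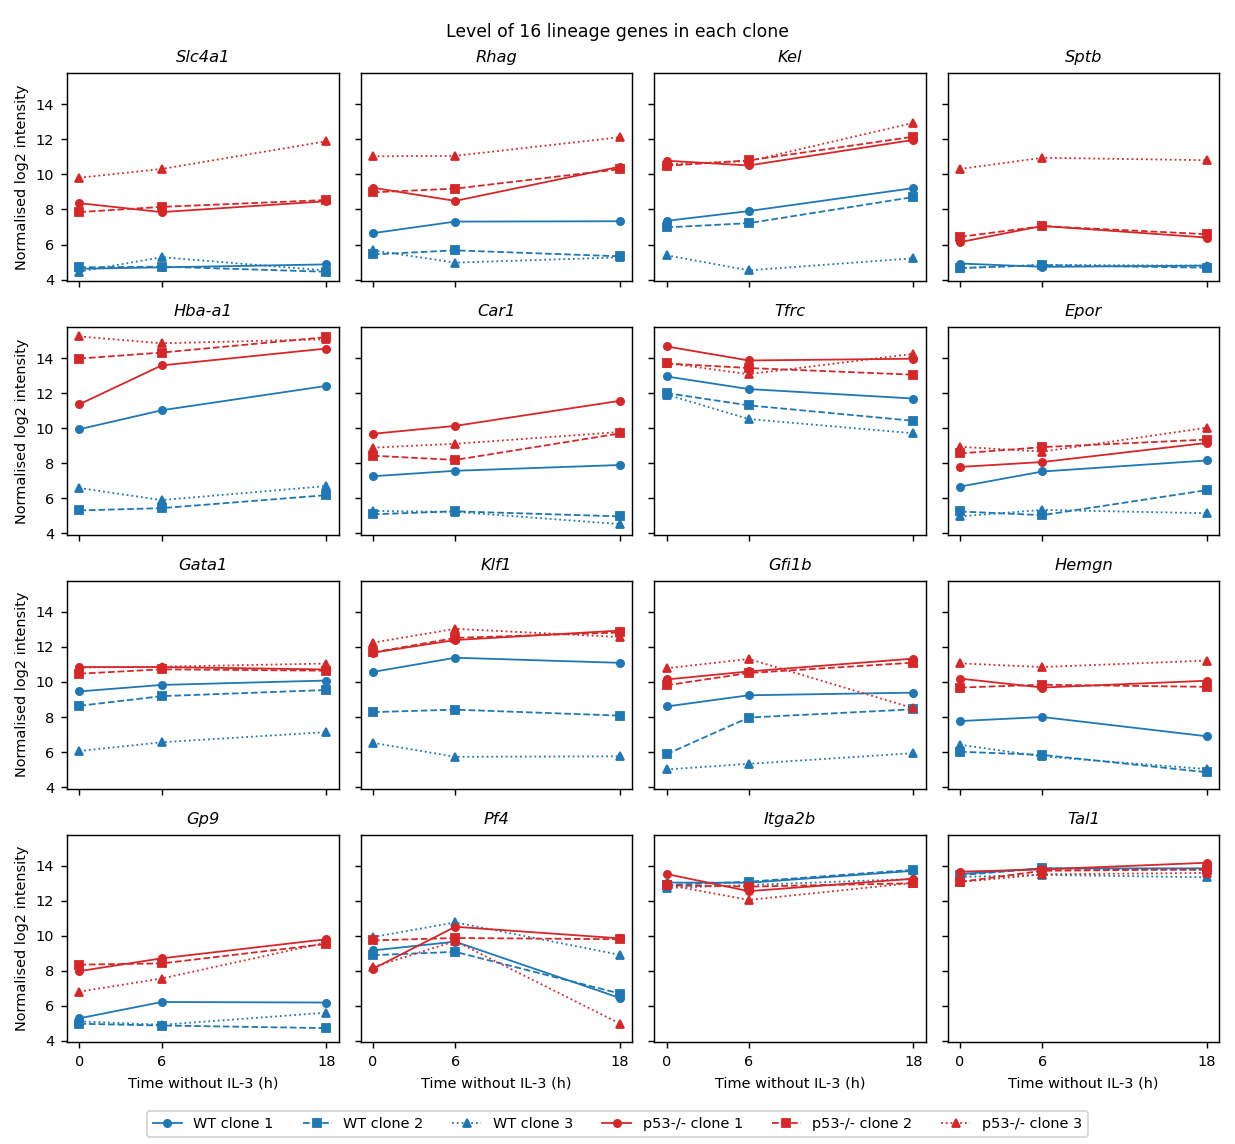
Normalised log2 intensity (vertical axis, shared) of 16 genes against hours without IL-3 (horizontal axis), with 1 line for each clone, WT in blue and p53-/- in red; marker and line style give the clone number. WT clone 1 runs above the other WT clones for Hba-a1, Car1, Epor, Klf1, Gfi1b and Hemgn, p53-/- clone 3 runs far above the others for Sptb and Slc4a1, and the lines of Tal1 and Itga2b lie together.

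The receptor and the nuclear regulators fell into a varying and a flat set. Epor, the receptor for erythropoietin, was 6.67, 5.25 and 4.97 in WT clones at 0 h and 7.79, 8.56 and 8.94 in p53-/- clones, with no overlap. It was detected in 1 WT clone at 0 h and at 6 h and in 2 at 18 h. Its log2 changes of 3.06, 2.66 and 2.58 at 0, 6 and 18 h were not called, with an adjusted p of 0.0173 at 0 h. A second Epor probe was called at 6 h (2.05) and at 18 h (1.85).

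Hemgn, hemogen, a nuclear protein of blood progenitors, was called at each time. At 0 h it was 7.77, 6.02 and 6.42 in WT and 10.19, 9.68 and 11.06 in p53-/- clones. At 18 h it was 6.90, 4.85 and 5.03 in WT and 10.07, 9.72 and 11.22 in p53-/- clones, leaving a wide gap between the genotypes. The change was 4.01 (SE 0.742, adjusted p = 0.0037) at 0 h, 3.42 (adjusted p = 0.00102) at 6 h and 4.55 (adjusted p = 0.000382) at 18 h. The call at 0 h was lost without WT clone 2, WT clone 3 or p53-/- clone 3, with changes of 3.23, 3.43 and 3.63.

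Gata1, the master regulator of both lineages, was present on all 18 arrays. In WT clones it was 9.46, 8.64 and 6.06 at 0 h, 9.83, 9.19 and 6.56 at 6 h, and 10.08, 9.54 and 7.14 at 18 h. In p53-/- clones it stayed between 10.47 and 11.05 at all times. Every p53-/- array lay above every WT array, by little for WT clone 1 and by much for WT clone 3. The log2 change was 2.35 (SE 0.897) at 0 h, 2.01 at 6 h and 1.34 at 18 h, none of them called (at 0 h adjusted p = 0.0982).

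Klf1, the activator of globin and red-cell membrane genes, held the same order of WT clones. It was 10.57, 8.28 and 6.53 in WT clones at 0 h and 11.09, 8.08 and 5.76 at 18 h. The p53-/- clones were close together, at 11.67, 11.68 and 12.24 at 0 h and 12.93, 12.82 and 12.56 at 18 h. The changes of 3.55, 3.82 and 4.36 at 0, 6 and 18 h had SE of 1.36, 1.09 and 1.24 and were not called. Gfi1b, a repressor that both lineages need, was 8.60, 5.88 and 5.01 in WT and 10.14, 9.81 and 10.78 in p53-/- clones at 0 h (change 4.15, adjusted p = 0.0154, not called). On the array of p53-/- clone 3 at 18 h, the one that stood apart, Gfi1b read 8.50, below WT clone 1.

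None of the other regulators was called. Tal1, which nucleates the complex with GATA1, was 13.06 to 14.16 over all 18 arrays, with a log2 change of -0.19 (SE 0.195) at 0 h. Lmo2, its bridging partner, was 12.30 to 13.53 with a change of 0.53 (SE 0.339). Nfe2 was 12.94 to 13.63 on all arrays but that of p53-/- clone 3 at 18 h, where it read 11.58. Its change was 0.03 (SE 0.188) at 0 h and -0.22 (SE 0.15, adjusted p = 0.336) at 6 h, when it was 13.58, 13.39 and 13.57 in WT and 13.30, 13.23 and 13.34 in p53-/- clones, without overlap.

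Of the 8 platelet and megakaryocyte genes, Gp9 stood alone at 0 h. Gp9, with Gp1bb and Gp5 a part of the platelet receptor for von Willebrand factor, was 5.29, 4.98 and 5.12 in WT clones, none detected, and 7.98, 8.35 and 6.81 in p53-/- clones. At 18 h it was 6.19, 4.73 and 5.61 in WT and 9.80, 9.53 and 9.61 in p53-/- clones. The difference at 0 h was at least 4.18-fold (adjusted p = 0.00378), and the log2 change was 3.15 (SE 0.395, adjusted p = 0.000105) at 6 h and 4.44 (SE 0.449) at 18 h, with 1 and 2 of the 3 WT clones detected. The call at 6 h held without any 1 of the 6 arrays compared, and that at 0 h was lost without WT clone 2, p53-/- clone 1 or p53-/- clone 2.

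The partners of Gp9 on the platelet surface did not follow it. Gp5 was 8.94, 7.64 and 9.47 in WT and 8.03, 8.73 and 10.28 in p53-/- clones at 0 h, and Gp1bb was detected on 4 WT and 5 p53-/- arrays with overlapping groups. Itga2b, the αIIb integrin, was bright and even, at 13.03, 12.89 and 12.72 in WT and 13.52, 12.87 and 12.91 in p53-/- clones at 0 h. Its partner Itgb3, the β3 integrin, was detected on 6 WT and 4 p53-/- arrays, with a log2 change of -0.73 (SE 0.434). Vwf, von Willebrand factor itself, was dim, with no overlap at 0 h but a change of 1.01 that was not called (adjusted p = 0.0775). Ppbp was highest in WT clone 3, between 7.46 and 7.91, above all other clones at each time.

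Pf4, platelet factor 4, was called higher in p53-/- cells at 18 h although the groups overlapped. At 18 h it was 6.45, 6.70 and 8.91 in WT and 9.85, 9.80 and 4.99 in p53-/- clones, the last of these not detected and from the array that stood apart. The weighted change was 2.72 (SE 0.601, adjusted p = 0.00495), while the plain means were 8.22 and 7.36. Left out 1 at a time, the 6 arrays gave changes of 0.46 to 3.08, and the call was lost without WT clone 1 or 2 or without p53-/- clone 1 or 2. At 0 h the change was -0.39 (adjusted p = 0.761).

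**Figure D3:**
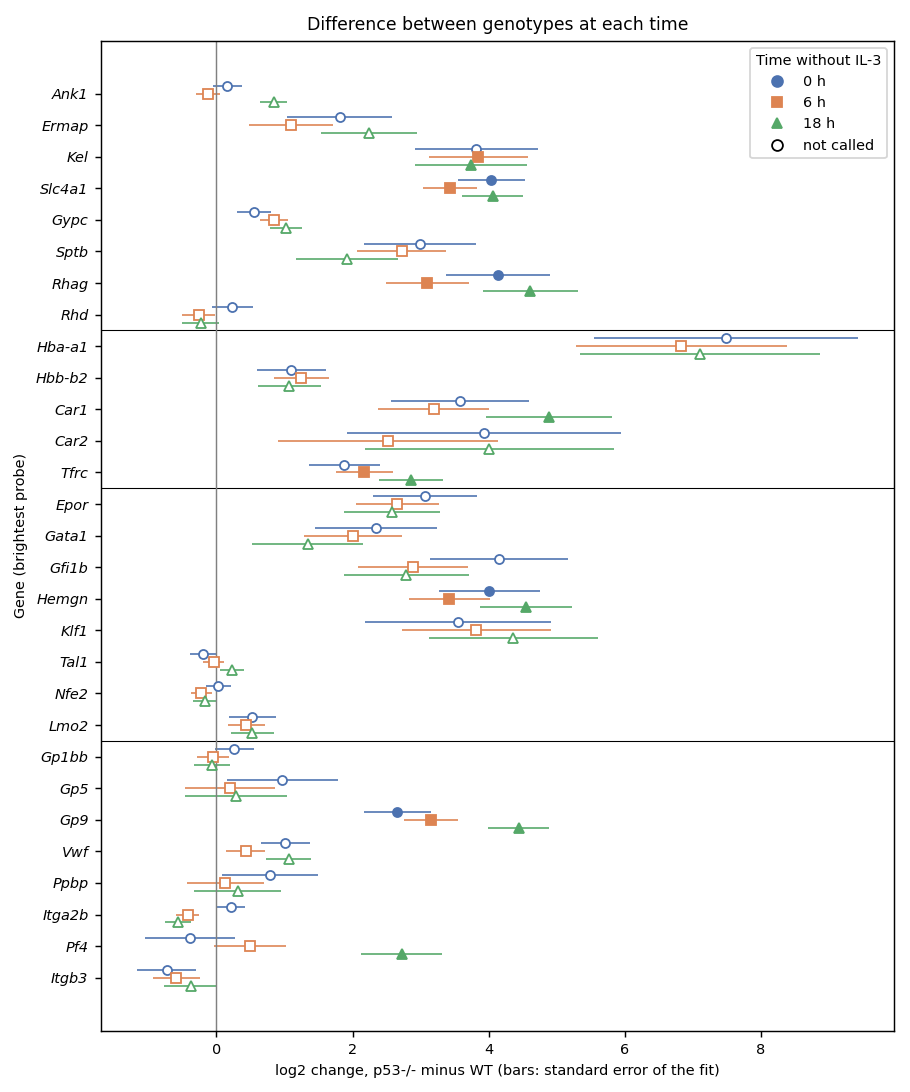
Log2 change between p53-/- and WT cells (horizontal axis, bars the SE of the fit) for the 29 genes tested (vertical axis, in the same 4 blocks as the colour map) at 0 h (circles), 6 h (squares) and 18 h (triangles), filled where the gene was called. Hba-a1 lies farthest to the right with the widest bars, Slc4a1, Rhag, Hemgn and Gp9 are filled at all 3 times, and Tal1, Nfe2 and Rhd lie near 0.

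All calls at 18 h rested on the arrays of p53-/- clones 1 and 2, since clone 3 had so low a weight. Without p53-/- clone 1 at 18 h, 0 of the 29 genes were called, and without clone 2, 1 was, while Slc4a1 kept a change of 5.65 and Rhag of 5.39. At 0 h the count was 1 without WT clone 2 and 2 without WT clone 3 or p53-/- clone 3. A fit with clone as a random block uses the pairing of a clone's arrays over time. It called 8 of the 29 genes at 0 h, 11 at 6 h and 11 at 18 h (2.3%, 4.44% and 4.74% of all genes were higher). These counts keep Slc4a1, Sptb and Ermap, which passed the detection filter through p53-/- arrays alone. The genes gained at 0 h were Kel (3.79, adjusted p = 0.00449), Hba-a1 (7.36, adjusted p = 0.00752), Epor (2.99, adjusted p = 0.00793) and Gfi1b (4.20, adjusted p = 0.00584). None of these was called over clone means, where their changes were 4.27, 6.51, 2.77 and 3.14 with an adjusted p of 0.0331 to 0.0691.

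WT clone 1 stood nearer to the p53-/- clones than the other WT clones did. The mean of the 13 detected red-cell genes, each centred on its own average, ran from -1.88 to -0.50 over WT arrays and from 0.51 to 2.41 over p53-/- arrays. It includes Slc4a1, Sptb and Ermap, which were kept through p53-/- arrays alone. Its split by genotype and the correlations with it are therefore a description and not a test. WT clone 1 was highest of the WT clones at each time, at -0.74, -0.62 and -0.50, while clones 2 and 3 lay close together at 6 h (-1.75 and -1.68) and 18 h (-1.84 and -1.75), and p53-/- clone 3 was highest of the p53-/- clones, at 1.92, 2.12 and 2.41. Over the 18 arrays, which share 6 clones and the split by genotype, Pearson's r with this mean was 0.987 for Rhag, itself left out of the mean for this, and among genes not counted in it 0.971 for Hemgn, 0.878 for Klf1 and 0.872 for Gp9, against 0.0374 for Tal1 and -0.449 for Nfe2.

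Markers of other cells differed between the same clones. WT clone 3, the lowest for Gata1, Klf1 and Kel, had all 16 tested neutrophil granule genes detected at each time, with a mean log2 level of 10.57 at 0 h, against 7.31 and 7.57 in WT clones 1 and 2 and 7.30 to 7.84 in p53-/- clones. The 13 tested genes of mast cells and basophils had a mean of 10.17 to 11.38 on WT and 8.62 to 10.60 on p53-/- arrays. At 0 h 3 of them were lower in p53-/- cells, namely Fcer1a (-2.33), Slc18a2 (-1.82) and Cpa3 (-3.05), and 0 were higher, against 2.67% and 2.13% of all genes. At 6 h 3 were lower and 0 higher, against 5% and 4.09% of all genes. At 18 h 0 were lower and 1 higher, Mcpt1 (at least 2.25-fold), against 3.47% and 4.37%. Of 7 monocyte and macrophage genes 1 was lower at 0 h, Adgre1 (-3.75), 1 at 6 h and 0 at 18 h. Of 8 lymphoid genes 1 was lower at each time, Thy1 (-6.70 at 0 h), and 1 higher at 6 h and 18 h, Cd3g. The same shares of all genes apply to both lists, where a single call is not read as a change of the list. Between 10 and 13 of the mast cell genes and between 6 and 16 of the neutrophil genes were detected on each array, so in none of the groups were these lists absent. Their part in the difference of the red-cell genes was not tested.

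Genes of the same pathways outside the 32 were counted in the same way. Those detected in 1 genotype alone were not left out of these counts. Of 18 other erythroid genes tested out of 32 listed, 2 were higher at 0 h, 5 at 6 h and 5 at 18 h, against 2.13%, 4.09% and 4.37% of all genes, and 0 were lower. Their median change was 1.19 at 0 h and 1.84 at 18 h, against 0.04 and 0.06 over all genes. At 0 h, 4 of the 18 had every p53-/- value above every WT value (14.9% of all genes). Tmod1, the tropomodulin that caps the short actin filaments of the red-cell skeleton, was at least 6.04-fold higher at 0 h (adjusted p = 0.000559), and Add2, β-adducin of the same skeleton, at least 2.47-fold (adjusted p = 0.000599). No WT array at 0 h detected either of them, so only bounds are given. Over clone means 4 were called (1.04% of all genes were higher), with Xk (1.57), which partners the Kell protein, and Blvrb (1.91), biliverdin reductase B, beside Add2 (2.11) and Tmod1.

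Of 20 other megakaryocyte genes tested out of 35 listed, 0 were called by limma at 0 h (median -0.18), 1 was lower at 6 h, Rab27b (-1.31), and 2 were lower at 18 h, Plek (-1.52) and Fli1 (-1.08), against 2.67%, 5% and 3.47% of all genes; 3 had an unadjusted p under 0.05 at 0 h. Among 22 tested partners of the GATA1 and TAL1 complexes, Lmo4 (-1.91) and Gfi1 (-2.80), the relative of Gfi1b that acts in granulocytes and stem cells, were lower at 0 h (2.67% of all genes), and Bcl11a (6.08), the repressor of fetal-type globin, was higher (2.13%). At 6 h 4 partners were lower and 1 higher (5% and 4.09% of all genes), and at 18 h 3 and 1 (3.47% and 4.37%). Over clone means 3 were called lower and 0 higher (1.39% and 1.04% of all genes). Lmo4 (-2.02) and Gfi1 (-3.15) were among the 3, and Bcl11a was not called (5.34, adjusted p = 0.0374, B = -0.58).

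Loss of IL-3 moved few of these genes in the model without a block. In WT cells, 0 of 29 were called by limma between 0 h and 6 h (4 had an unadjusted p under 0.05, and 2.65% of all genes were called higher and 4.26% lower), while Pf4 fell between 6 h and 18 h and Itga2b rose between 0 h and 18 h. Pf4 was 9.66, 9.08 and 10.76 in WT clones at 6 h and 6.45, 6.70 and 8.91 at 18 h, lower at 18 h in each clone, and it fell by 2.69 (adjusted p = 0.00162, 1 of 29 lower against 5.58% of all genes, 0 higher against 2.56%). Itga2b rose from 13.03, 12.89 and 12.72 to 13.70, 13.76 and 13.24, by 0.80 (adjusted p = 0.000682, 1 of 29 higher against 7.61% of all genes, 0 lower against 10.6%). Pf4 was lost without WT clone 1 or 2 at 18 h, and Itga2b without 5 of the 6 arrays compared.

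In p53-/- cells 0 of 29 were called in any of the 3 time comparisons, with 2 at an unadjusted p under 0.05 in each, where of all genes 0.572% were called higher and 1.08% lower at 6 h against 0 h, 0.5% and 1.1% at 18 h against 6 h, and 1.41% and 2.51% at 18 h against 0 h. Nor was any of the 29 called for a difference between genotypes in the change to 6 h or to 18 h, with 1 and 4 at an unadjusted p under 0.05 (of all genes 0% and 1.38% were called).

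The arrays of 1 clone deviated together, and a fit with clone as a fixed block, which compares each clone with itself, called more. This fit had array weights of its own, from 0.0639 (p53-/- clone 3 at 18 h) to 4.19 (WT clone 3 at 6 h). Its changes are therefore not plain averages of the changes in the 3 clones. Between 0 h and 18 h in WT cells 8 of 29 were then called, 5 higher and 3 lower, against 11.7% and 13.5% of all genes. Higher were Kel (1.52, adjusted p = 3.42e-05), Epor (1.15), Gata1 (0.87, SE 0.115, adjusted p = 2.16e-05), Gfi1b (2.07) and Itga2b (0.81), and lower were Tfrc (-1.61, SE 0.152, adjusted p = 1.03e-06), Hemgn (-1.16, SE 0.144, adjusted p = 1.2e-05) and Pf4 (-2.14). Klf1 (-0.17), Tal1 (0.26), Nfe2 (0.56) and Lmo2 (-0.07) were not called. Without array weights 3 of the 8 were called, Tfrc, Gata1 and Hemgn, and Tfrc alone was called whichever of the 6 arrays was left out.

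Each WT clone moved the same way for these 3 genes. Tfrc was lower at 18 h than at 0 h by 1.27 to 2.21 on the log2 scale (changes of -1.27, -1.58 and -2.21 in clones 1, 2 and 3), and already at 6 h its change was -0.90 in the blocked fit (adjusted p = 0.000896, 1 of 29 lower and 0 higher against 5.39% and 4.31% of all genes). Hemgn changed by -0.87, -1.17 and -1.39, and Gata1 by 0.62, 0.90 and 1.08. Between 6 h and 18 h the blocked fit called 1 gene higher, Kel (1.40), and 3 lower, Ank1 (-0.67), Hemgn (-0.93) and Pf4 (-2.55), against 4.96% and 7.43% of all genes.

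In p53-/- cells the blocked fit called 7 of 29 higher at 18 h than at 0 h and 0 lower, where 3.93% and 4.79% of all genes were. These were Ermap (1.98), Kel (1.49), Rhag (1.39), Car1 (1.63, SE 0.219, adjusted p = 0.000196), Car2 (0.97), Klf1 (1.19) and Gp9 (1.73, SE 0.275, adjusted p = 0.000617). Kel, Rhag, Car1, Car2, Klf1 and Gp9 were higher at 18 h in each of the 3 clones, while Ermap was higher in clones 1 and 2 (1.85 and 1.63) and not in clone 3 (-0.39). The weighted change of Ermap, 1.98, thus lay above that of every clone, and it was 1.03 in the block without array weights. Without array weights 4 were called, Kel, Car1, Car2 and Gp9. Left out 1 at a time, the 6 arrays compared gave counts of 0 to 6, with 0 without clone 1 or clone 2 at 18 h.

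Between 6 h and 18 h the blocked fit called 4 genes higher in p53-/- cells, Ermap (1.37), Kel (1.39), Rhag (1.54) and Car1 (1.43), and 0 lower, against 1.92% and 2.04% of all genes. Between 0 h and 6 h it called Sptb higher (0.71) and Itga2b lower (-0.77), against 2.25% and 3.67%. Comparisons over time share arrays, so a gene named in several of them is not independent evidence.

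**Figure D4:**
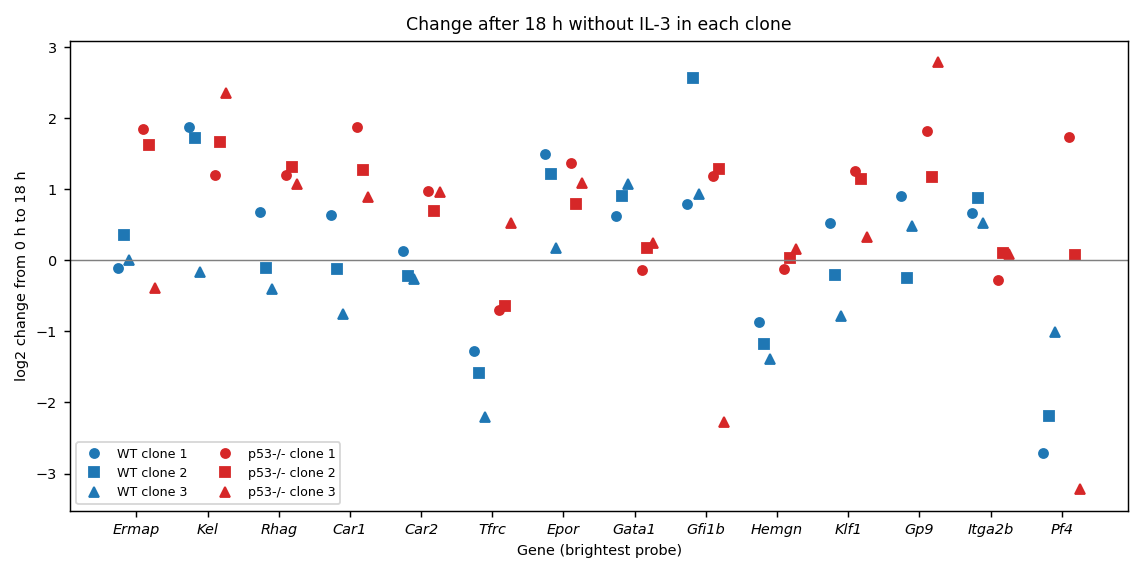
Log2 change from 0 h to 18 h without IL-3 (vertical axis) in each clone for the 14 genes (horizontal axis) that the blocked fit called between 0 h and 18 h in either genotype, with WT clones in blue, p53-/- clones in red and clone numbers by marker. Tfrc and Hemgn lie below 0 and Gata1 and Itga2b above 0 in all 3 WT clones, Kel, Rhag, Car1, Car2, Klf1 and Gp9 lie above 0 in all 3 p53-/- clones, and Pf4 and Gfi1b of p53-/- clone 3 come from the array that stood apart.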

How the data were processed

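RNA of 3 WT and 3 p53-/- FDM clones at 0, 6 and 18 h without IL-3 had been hybridised to 18 Illumina MouseWG-6 V1 arrays. The authors deposited probe intensity values before normalisation, a detection column that holds a fraction (1 minus the detection p), and log2 values processed with lumi, used as an alternative only. In the study 1 unnamed array was excluded as an outlier; all 18 were used here. Intensities were corrected with neqc (limma 3.58.1, R 4.3.3: normexp on detection p, offset 16, quantile, log2), because no control probes were used here. Of the probes, those detected (p under 0.01) on 1 array or more were kept (21413 of 46632; 16268 of them with 1 symbol, 11195 genes). One linear model of 6 groups with array weights and eBayes gave all comparisons but that of clone means, which had no weights. P-values were two-sided and adjusted by Benjamini-Hochberg over all probes kept.

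Arrays with 1 replicate number share a clone within a genotype: their deviations from group means correlated at 0.276 to 0.756 (18 pairs), against -0.0417 to 0.0336 between genotypes (9 pairs). The genes, lists and naming rule (values in full for genes called at 0 h, over clone means or over time, or with clones differing by over 3 at 0 h, and for regulators) were chosen with earlier results of these data known. The procedure was tested on simulated data. Slides were not used. Sequences came from RefSeq (GRCm38.p6).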

Additional observations from a re-analysis of the deposited data

Results flagged for a closer look

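With clone as a fixed block, the change from 0 h to 18 h differed between the genotypes for 7 of the 29 genes, by a test of the difference itself (5.65% of all genes). It was greater in p53-/- than in WT cells for Ermap by 1.74 (SE 0.326, adjusted p = 0.00396), Car1 by 1.69 (SE 0.272, adjusted p = 0.00187), Car2 by 1.15 (SE 0.212, adjusted p = 0.00368), Hemgn by 1.13 (SE 0.243, adjusted p = 0.00725), Gp9 by 1.72 (SE 0.34, adjusted p = 0.00485) and Pf4 by 3.03 (SE 0.505, adjusted p = 0.00218). For Gata1 it was lower (-0.90, SE 0.195, adjusted p = 0.00749). Ermap was detected on no WT array and passed the filter through p53-/- arrays alone. Its WT change lay at background, so its difference mainly repeats the p53-/- change and is no separate evidence. Gp9 was detected in no WT clone at 0 h, and Car1 in WT clone 1 alone, so their WT changes also lay partly at background. Car2 changed by 0.98, 0.70 and 0.96 in p53-/- clones and by 0.13, -0.22 and -0.26 in WT clones, and Gata1 by -0.14, 0.17 and 0.24 against 0.62, 0.90 and 1.08. For Pf4 the p53-/- clones gave 1.74, 0.08 and -3.22. The same block without array weights called 0 of the 29, with an adjusted p of 0.0819 for Hemgn and 0.084 for Car2. The 12 arrays compared were also left out 1 at a time. The call then held in 0 of the 12 fits for Gata1, 1 for Hemgn, 3 for Gp9 and 4 for Car2. It held in 5 for Ermap, 7 for Pf4 and 9 for Car1, so none of the differences held in every fit.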

How the results depend on the processing

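No direction turned under any alternative run. Of 24 gene calls, 2 held under every setting and without every array, both of Gp9. The 4 calls over clone means became 1 with no detection filter, 2 on the authors' processed values and 9 at an adjusted p of 0.05 or lower with no condition on B, a threshold that gave 11, 14 and 17 at 0, 6 and 18 h. Median scaling gave 15 at 18 h, and fitting only the arrays compared gave 8 at 0 h and 2 at 6 h. Counts ran from 1 to 8 at 0 h, 3 to 12 at 6 h, 0 to 10 at 18 h and 3 to 6 over clone means when 1 array was left out, and from 1 to 10 when 1 clone was. The cause was not tested.

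For WT 18 h against 6 h (1 called), no background correction and median scaling gave 2, the threshold of 0.05 gave 3, the random replicate block 3, the fixed block 4, and no filter, no weights or only the arrays compared 0. For WT 18 h against 0 h (1 called) the counts were 2 with no background correction or the authors' values, 3 with detection on at least 3 arrays or the random block, 6 at the threshold of 0.05, 8 with the fixed block, 3 with that block unweighted, and 0 with no filter, no weights or only the arrays compared. For WT 6 h against 0 h (0 called) the threshold of 0.05 and the fixed block gave 1 each. For p53-/- against WT the random block gave 8 at 0 h and 11 at 6 h. Beyond these and the WT counts above, it changed no count by over 1.5 times.

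In p53-/- cells (0 called) 18 h against 6 h gave 1 with no background correction or only the arrays compared, 2 on the authors' values and 4 with the fixed block. For 18 h against 0 h it was 1 with no background correction, median scaling, only the arrays compared or the threshold of 0.05, 2 on the authors' values, 7 with the fixed block and 4 with that block unweighted, and for 6 h against 0 h 2 with the fixed block. The genotype difference to 18 h gave 1 with no background correction or the authors' values and 7 with the fixed block. With 1 array left out, counts were 0 to 1 for WT 6 h against 0 h and 18 h against 6 h, 0 to 3 for WT 18 h against 0 h and 0 in the p53-/- and difference comparisons, and with the fixed block 1 to 9, 0 to 7 and 0 to 8 for 18 h against 0 h in WT, in p53-/- and for their difference. The last gave 5 without WT clone 2 at 6 h, WT clone 3 at 18 h or p53-/- clone 3 at 18 h. Dim probes, such as Slc4a1 in WT cells, have only a bound.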

Other observations

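Outside the 32 genes, the named probes whose levels followed the mean of the red-cell genes most closely over the 18 arrays, among 9738 probes detected on at least 3 arrays, were those of Necap2 (Pearson's r 0.97), Tmod1 (0.969), Ninl (0.967), Ces2g (0.963) and Adcy6 (0.961). Tmod1 belongs to the red-cell membrane skeleton. The log2 level of Necap2 ran from 11.19 to 14.37, that of Ces2g from 4.69 to 11.51 and that of Adcy6 from 4.41 to 10.33. These values are a description, since the arrays share 6 clones and the split by genotype, and any gene that separates the genotypes scores high.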
